A study of Homo sapiens with 10 samples.

Results

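The 10 genes described here are 7 immediate early genes (FOS, JUN, JUNB, EGR1, IER2, IER3 and DUSP1) and the 3 genes of the ZFP36 family (ZFP36, ZFP36L1 and ZFP36L2), taken by gene name from the 35606 gene IDs listed in each of the 2 tables of RNA-seq values. They were measured in QGP-1, a human cell line established from a neuroendocrine tumor of the pancreas, in 5 groups of 2 samples. In the first table, cells carried a lentiviral vector with a guide RNA and a nuclease-dead Cas9 joined to the KRAB repressor (CRISPR interference), with puromycin selection. The guide was the control sgNC or sgPIKFYVE-1, which targets the gene of the lipid kinase PIKfyve, and the knockdown therefore rests on 1 guide. In the second table, cells labelled wild type received the solvent DMSO, 1 µM apilimod, a PIKfyve inhibitor, or 100 nM Torin-1, an inhibitor of the kinase mTOR. The labels give 24 h for both drugs, whereas the text of the study gives a shorter exposure for the RNA-seq, so the time is uncertain. Nothing in the labels says that replicates came from separate cultures, and p-values then measure the spread between these samples only.

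Immediate early genes are transcribed within minutes of a stimulus, without new protein synthesis, mostly through the MAPK pathway and the transcription factors SRF and CREB that it activates. FOS, JUN and JUNB are subunits of the AP-1 transcription factor, EGR1 is a zinc finger transcription factor, and DUSP1 is a phosphatase that switches MAP kinases off. Their transcripts are short-lived, in many cases through AU-rich elements in the 3′UTR. Tristetraprolin (TTP), the product of ZFP36, and its relatives encoded by ZFP36L1 and ZFP36L2 bind such elements and recruit the deadenylase complex that starts decay. TTP is itself an immediate early gene product, and the study names it as a destabilizer of the mRNA of transferrin receptor 1 (TFRC) downstream of mTOR.

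The promoters are shown because SRF and CREB act on these genes from sites close to the start of transcription. Windows from 250 bases before to 50 bases after the start were taken from RefSeq (GRCh38.p14) for 8 of the 10 genes, with 2 windows for ZFP36L1; IER3 and ZFP36L2 had none in the table used. Each is written 5′ to 3′ on the strand of the gene. Capitals mark the CArG box bound by SRF, the cyclic AMP response element TGACGTCA (CRE), or its core TGACG, searched on both strands, so that a core on the other strand reads CGTCA.
EGR1 (chr5.0:138465229.0-138465528.0, forward strand): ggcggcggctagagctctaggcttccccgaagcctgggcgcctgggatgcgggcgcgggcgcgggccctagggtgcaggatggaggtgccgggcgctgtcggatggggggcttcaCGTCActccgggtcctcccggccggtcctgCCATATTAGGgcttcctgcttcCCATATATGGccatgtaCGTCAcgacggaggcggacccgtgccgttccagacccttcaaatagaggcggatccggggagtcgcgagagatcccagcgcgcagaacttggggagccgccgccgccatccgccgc
FOS (chr14.0:75278578.0-75278877.0, forward strand): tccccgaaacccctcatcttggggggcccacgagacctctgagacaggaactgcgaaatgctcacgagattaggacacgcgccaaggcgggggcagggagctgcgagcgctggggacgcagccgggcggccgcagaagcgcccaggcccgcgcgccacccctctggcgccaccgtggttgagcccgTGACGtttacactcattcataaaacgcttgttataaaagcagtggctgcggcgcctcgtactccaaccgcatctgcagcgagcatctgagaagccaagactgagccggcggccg
DUSP1 (chr5.0:172771146.0-172771445.0, reverse strand): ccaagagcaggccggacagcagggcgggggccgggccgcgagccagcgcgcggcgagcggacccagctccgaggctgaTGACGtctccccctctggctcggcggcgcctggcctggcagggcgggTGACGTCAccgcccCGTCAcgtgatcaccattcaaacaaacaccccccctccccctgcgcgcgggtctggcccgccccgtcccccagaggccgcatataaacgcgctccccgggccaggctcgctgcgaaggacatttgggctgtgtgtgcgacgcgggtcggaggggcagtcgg
ZFP36 (chr19.0:39406597.0-39406896.0, forward strand): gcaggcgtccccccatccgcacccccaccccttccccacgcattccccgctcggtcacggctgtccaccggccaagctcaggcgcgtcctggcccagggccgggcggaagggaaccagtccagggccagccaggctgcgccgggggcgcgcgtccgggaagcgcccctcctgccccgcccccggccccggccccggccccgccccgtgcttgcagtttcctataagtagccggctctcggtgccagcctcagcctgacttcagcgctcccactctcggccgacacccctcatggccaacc

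Among the 8 genes only EGR1 held a CArG box in its window, and it had 2, starting 105 and 83 bases before the start. Sequence more than 250 bases before the start was not searched, so a window without a box does not show a promoter without one. Of 35116 RefSeq promoter windows, 1.29% held a CArG box. The full CRE was in the windows of DUSP1, 125 bases before the start, and of ZFP36L1, in its second window, against 1.85% of all windows. The core TGACG was in 7 of the 8 genes, all but ZFP36, against 24.6% of all windows, and every full CRE contains 2 overlapping cores. The AP-1 site TGANTCA was in none of the 8, against 7.71% of all windows. A match describes these letters only and is not a binding site; the part of these motifs in the values below was not tested.

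**Figure D1:**
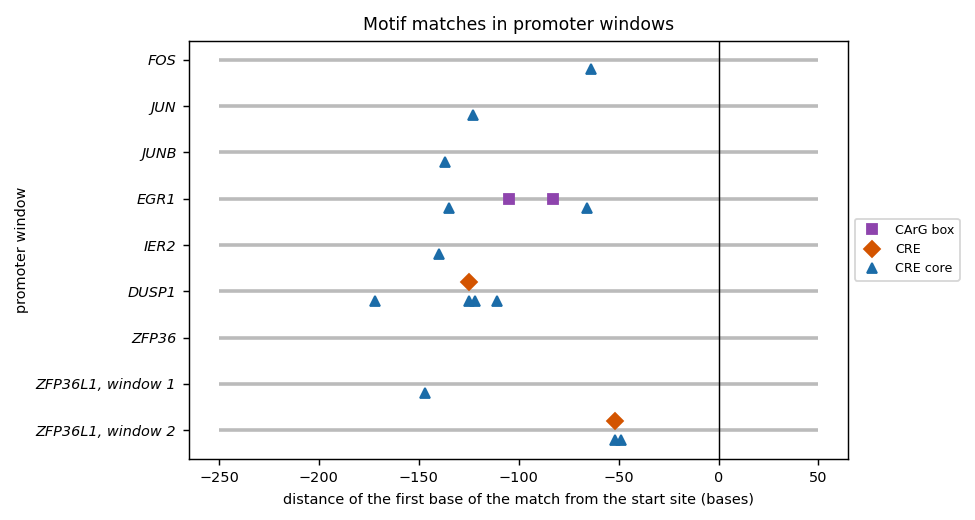
Positions of motif matches in the promoter windows of 8 genes. The horizontal axis gives the distance from the start site in bases, each grey line is a window from 250 bases before to 50 bases after the start, and symbols mark CArG boxes, full CREs and CRE cores on either strand. EGR1 carries the 2 CArG boxes, at 105 and 83 bases before the start, and the ZFP36 window carries no match.

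The letters TATTTAT, the core bound by TTP and its relatives, were counted in the 3′UTR of 1 transcript per gene in GENCODE release 29. Of the 10 genes, 7 held at least 1, against 28.8% of 18945 coding genes. IER3 had 4, DUSP1, ZFP36, ZFP36L1 and ZFP36L2 had 3 each, FOS had 2 and JUN had 1, whereas JUNB, EGR1 and IER2 had 0. TFRC had 2. Longer 3′UTRs hold the core more often. Among 3′UTRs within 10% of the length, at least 1 core was found in 31.2% for JUN, 40.5% for ZFP36L1, 41.1% for ZFP36L2 and 55.4% for TFRC. As many cores as the gene itself were held by 0.787% for IER3, 1.58% for DUSP1, 1.58% for ZFP36, 4.91% for FOS, 5.68% for ZFP36L1, 5.43% for ZFP36L2 and 22.7% for TFRC. A site of each of 5 genes is printed below, with the core in capitals, because the text returns to the levels of ZFP36, of the genes that carry the core and of TFRC.
FOS (chr14:75282060-75282088, forward strand): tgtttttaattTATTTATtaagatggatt
DUSP1 (chr5:172768643-172768671, reverse strand): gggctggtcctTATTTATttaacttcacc
ZFP36 (chr19:39409181-39409209, forward strand): aatgggcccttTATTTATgacgactttat
ZFP36L2 (chr2:43223448-43223476, reverse strand): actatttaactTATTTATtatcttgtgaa
TFRC (chr3:196051052-196051080, reverse strand): tggcactgagaTATTTATtgtttatttat

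The values are normalized read counts on a counts-per-million (CPM) scale, and each table was normalized on its own, so no test crosses the tables. The steps between low values put the depth at 9.30 to 13.6 M reads per sample, at which 3 reads are worth 0.227 to 0.329 CPM. Neuroendocrine epithelial markers summed to 8975 to 12856 CPM per sample, with 12 of 13 at a mean of at least 1 CPM in each table. Fibroblast markers summed to 2.10 to 10.4 CPM, leukocyte markers to 0.661 to 2.75 CPM and endothelial markers to 1.06 to 4.99 CPM, with COL3A1, LUM, CD3E and MS4A1 at 0 in every sample. The knockdown showed in its target: PIKFYVE measured 101 and 97.5 CPM with sgNC and 10.9 and 12.5 CPM with sgPIKFYVE-1, or 11.8% of the control mean.

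Compared per kilobase of transcript, JUNB had the highest level of the 10 genes in every group, with 67.0 CPM per kb in sgNC and 26.6 in DMSO. ZFP36 came second in sgNC at 37.1 CPM per kb, followed by IER2 at 16.6, EGR1 at 11.4, FOS at 10.8, DUSP1 at 7.95, JUN at 7.63, ZFP36L2 at 1.80 and ZFP36L1 at 1.25. Of the neighbours in that order, EGR1 and FOS had overlapping replicates. In DMSO the order per kilobase was JUNB, IER2 at 13.0, DUSP1 at 12.6, ZFP36 at 11.1, ZFP36L2 at 5.50, EGR1 at 5.46, FOS at 5.25, JUN at 4.92 and ZFP36L1 at 0.299. There IER2 overlapped DUSP1, and ZFP36L2, EGR1, FOS and JUN formed a run in which each overlapped the next. The control groups of the tables thus held these transcripts in different proportions: within sgNC, ZFP36 was 19.0 and 22.4 times as high per kilobase as ZFP36L2, and within DMSO 2.12 and 1.91 times.

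IER3, whose product modulates apoptosis after growth factors and stress (ENSG00000137331.12, chromosome 6, 30743199 to 30744554, reverse strand), was listed at 0 in all 10 samples of both tables and could not be tested. It lies in the MHC region. Of the 31 other coding genes within 500 kb of it, 7 were also listed at 0 in every sample of the knockdown table and 5 in every sample of the drug table, against 15.2% and 14.3% of all 19941 coding genes. The share near IER3 was thus above that of all coding genes in the knockdown table and close to it in the drug table. A listed 0 does not show that the transcript was absent, and how reads in this region were assigned was not tested. The other 9 genes passed the filter of a mean of at least 1 CPM in both tables.

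**Figure D2:**
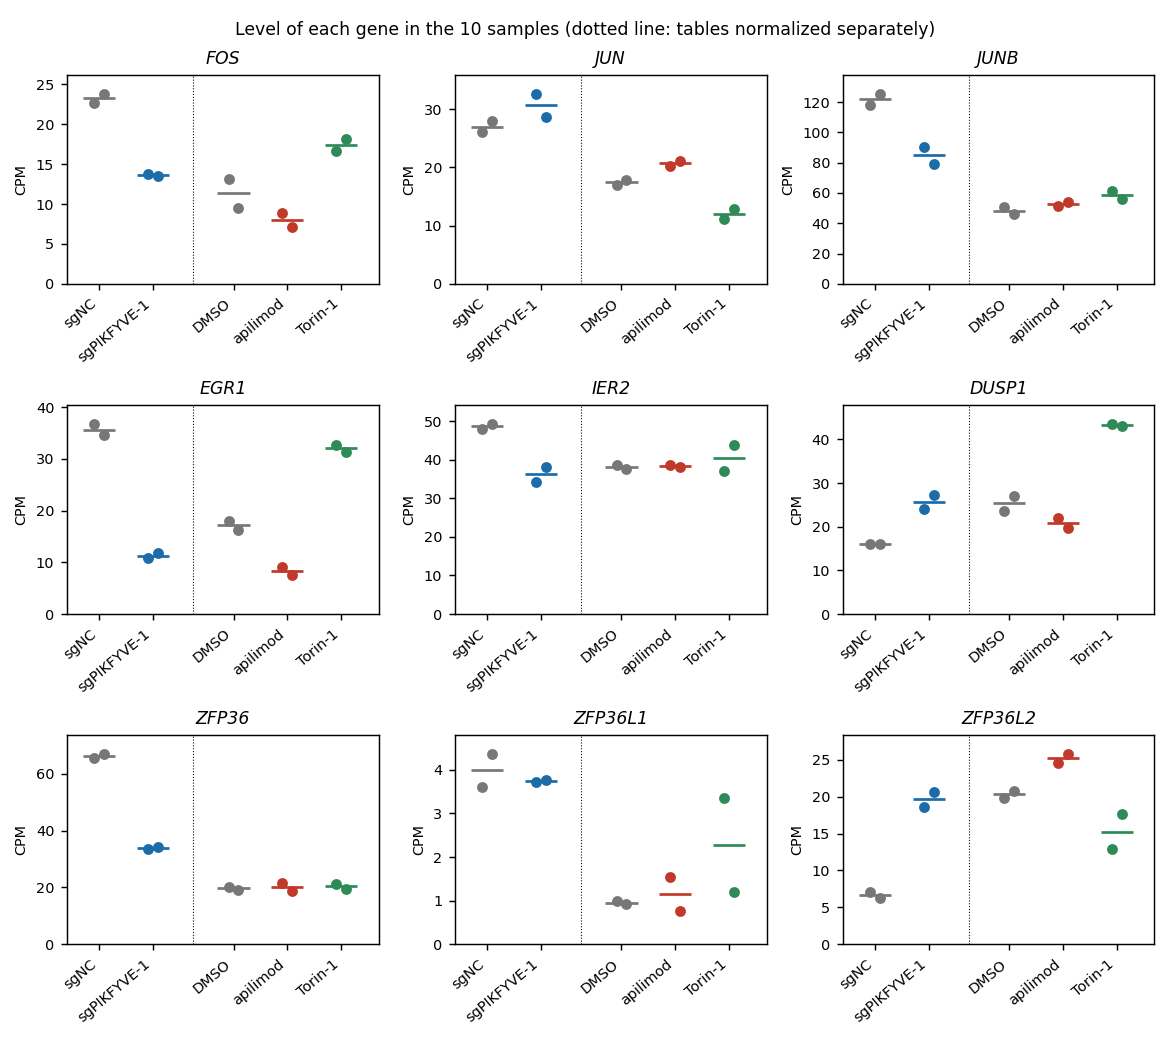
Level of each of the 9 detected genes in every sample. Each panel gives CPM on a vertical axis from 0 for 2 samples per group (points) and the group mean (bar), with the separately normalized knockdown and drug tables on either side of the dotted line. EGR1 was lower with sgPIKFYVE-1 and with apilimod and higher with Torin-1, while ZFP36 lay at 33.4 and 34.3 CPM with sgPIKFYVE-1, 65.5 and 67.0 CPM with sgNC, and 18.8 to 21.4 CPM in all 6 samples of the drug table.

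Knockdown of PIKFYVE was compared with the control guide to ask how these genes respond to loss of the kinase. EGR1, FOS, JUNB, IER2 and ZFP36 fell, DUSP1 and ZFP36L2 rose, and JUN and ZFP36L1 did not pass the test. Of the 9 genes tested, 7 thus passed at an adjusted p under 0.05, against 42.5% of the 13591 genes tested; 2 were higher, against 21.6%, and 5 lower, against 20.9%. The median log2 fold change of all genes tested was -0.0042. In bulk samples, fewer cells with a transcript and less of it per cell cannot be told apart.

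EGR1 (ENSG00000120738.8, chromosome 5, 138465490 to 138469315, forward strand) measured 36.8 and 34.6 CPM with sgNC and 10.9 and 11.8 CPM with sgPIKFYVE-1. Both knockdown samples lay below both controls, at 31.7% of the control mean. It fell by 1.58 on the log2(CPM + 1) scale (SE 0.12, limma, adjusted p = 3.53e-09) and ranked 72 from the lowest of the 13591 genes. EGR1 showed the largest decrease of the 9 genes tested. Its promoter is the one printed above with 2 CArG boxes, and its 3′UTR held no TATTTAT.

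FOS (ENSG00000170345.10, chromosome 14, 75278774 to 75282230, forward strand) measured 22.6 and 23.8 CPM with sgNC and 13.8 and 13.5 CPM with sgPIKFYVE-1. The groups did not overlap, and FOS fell by 0.73 on the log2 scale (SE 0.13, limma, adjusted p = 0.000115). JUNB (ENSG00000171223.6, chromosome 19, 12791496 to 12793315, forward strand) measured 118 and 126 CPM with sgNC and 90.6 and 79.2 CPM with sgPIKFYVE-1. Both knockdown samples lay below both controls, at 69.6% of the control mean, and on the log2 scale it fell by 0.52 (SE 0.07, limma, adjusted p = 6.73e-06). An exon of HOOK2 on the opposite strand overlaps an exon of JUNB by 259 bases, and whether counting used strand is not given in the sources used here. JUN, the third AP-1 subunit (ENSG00000177606.6, chromosome 1, 58780788 to 58784327, reverse strand), measured 26.1 and 27.9 CPM with sgNC and 32.7 and 28.7 CPM with sgPIKFYVE-1. It differed by 0.18 on the log2 scale, with a 95% interval from -0.046 to 0.40 (limma, adjusted p = 0.197). Within each sample the ratio of FOS to JUN, per kilobase, was 1.42 and 1.40 with sgNC and 0.694 and 0.771 with sgPIKFYVE-1.

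IER2, a nuclear protein induced by growth factors (ENSG00000160888.7, chromosome 19, 13150415 to 13154908, forward strand), measured 47.9 and 49.3 CPM with sgNC and 34.3 and 38.2 CPM with sgPIKFYVE-1. It fell by 0.42 on the log2 scale (SE 0.09, limma, adjusted p = 0.000855), the smallest change among the 7 genes that passed. DUSP1 (ENSG00000120129.6, chromosome 5, 172768090 to 172771195, reverse strand) went the other way. It measured 16.0 and 16.1 CPM with sgNC and 24.1 and 27.2 CPM with sgPIKFYVE-1. It rose by 0.64 on the log2 scale (SE 0.12, limma, adjusted p = 0.000275) and was the only 1 of the 6 detected immediate early genes that passed the test as higher. The ratio of EGR1 to DUSP1 per kilobase was 1.48 and 1.38 in the sgNC samples and 0.290 and 0.278 in the sgPIKFYVE-1 samples.

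In the ZFP36 family, the abundant member fell and a scarcer one rose. ZFP36 (ENSG00000128016.6, chromosome 19, 39406813 to 39409412, forward strand) measured 65.5 and 67.0 CPM with sgNC and 33.4 and 34.3 CPM with sgPIKFYVE-1. It fell to 51.1% of the control mean, by 0.95 on the log2 scale (SE 0.08, limma, adjusted p = 1.92e-08). ZFP36L2 (ENSG00000152518.8, chromosome 2, 43222402 to 43226609, reverse strand) measured 7.14 and 6.20 CPM with sgNC and 18.6 and 20.6 CPM with sgPIKFYVE-1. It rose to 2.94 times the control mean, by 1.43 on the log2 scale (SE 0.15, limma, adjusted p = 4.39e-07), and ranked 69 from the highest of the 13591 genes. ZFP36L1 (ENSG00000185650.9, chromosome 14, 68787660 to 68796253, reverse strand) was near 4 CPM throughout, with 3.62 and 4.37 CPM in sgNC and 3.73 and 3.78 CPM in sgPIKFYVE-1. Its difference of -0.07 had a 95% interval from -0.54 to 0.41 (limma, adjusted p = 0.838), so a moderate change in either direction was not detectable at this depth. The ratio of ZFP36 to ZFP36L2 per kilobase went from 19.0 and 22.4 in sgNC to 3.71 and 3.45 in sgPIKFYVE-1. The 3 family members summed to 39.7 and 40.5 CPM per kb with sgNC and 24.9 and 26.0 with sgPIKFYVE-1.

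Apilimod was compared with DMSO to ask whether the inhibitor has the effects of the knockdown. EGR1 fell, and it alone passed. Of the 9 genes tested, 1 passed the test, against 8.54% of the 13520 genes tested, so the count is near the background; 0 were higher, against 5.75%, and 1 lower, against 2.79%. The median log2 fold change of all genes was -0.0057, and 2873 genes had an unadjusted p under 0.05.

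EGR1 measured 18.0 and 16.3 CPM with DMSO and 9.12 and 7.63 CPM with apilimod. Its apilimod mean was 48.9% of the DMSO mean, a fall by 0.95 on the log2 scale (SE 0.13, limma, adjusted p = 0.000195), and it ranked 28 from the lowest of the 13520 genes. FOS measured 13.1 and 9.54 CPM with DMSO and 8.83 and 7.11 CPM with apilimod. The groups did not overlap, but the DMSO samples were far apart, and the difference of -0.45 on the log2 scale had an adjusted p of 0.123 (limma; 95% interval from -0.81 to -0.095). It was -0.24 without the first DMSO sample and -0.66 without the second. DUSP1 measured 23.7 and 27.0 CPM with DMSO and 22.1 and 19.7 CPM with apilimod, a log2 difference of -0.27 (95% interval from -0.50 to -0.041, limma, adjusted p = 0.153). That is the opposite sign from the knockdown, a difference between tables that was not tested.

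JUN, JUNB and IER2 did not pass with apilimod. JUN measured 17.0 and 17.8 CPM with DMSO and 20.3 and 21.1 CPM with apilimod (log2 difference 0.24, 95% interval from -0.032 to 0.50, limma, adjusted p = 0.305). JUNB measured 50.8 and 45.9 CPM with DMSO and 51.2 and 53.9 CPM with apilimod (log2 difference 0.12, 95% interval from -0.061 to 0.30, limma, adjusted p = 0.467). For both genes the apilimod samples lay above both DMSO samples. IER2 measured 38.6 and 37.7 CPM with DMSO and 38.6 and 38.0 CPM with apilimod, a log2 difference of 0.01 with a 95% interval from -0.20 to 0.21 (limma, adjusted p = 0.979). In the knockdown, in a table normalized separately, the value was -0.42.

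ZFP36 measured 20.3 and 19.2 CPM with DMSO and 21.4 and 18.8 CPM with apilimod. The groups overlapped, and the log2 difference of 0.02 had a 95% interval from -0.23 to 0.28 (limma, adjusted p = 0.948). In the knockdown the value was -0.95, and the difference between the tables was not tested. ZFP36L2 measured 19.8 and 20.8 CPM with DMSO and 24.5 and 25.8 CPM with apilimod, a log2 difference of 0.30 (95% interval from 0.0009 to 0.59, limma, adjusted p = 0.234). Both apilimod samples were above both controls. ZFP36L1 was close to the filter, at 0.996 and 0.912 CPM with DMSO and 1.55 and 0.756 CPM with apilimod, or 10 to 16 reads a sample, and the 95% interval of its log2 difference ran from -0.59 to 0.82.

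Torin-1 was compared with the same DMSO samples, which asks for the effect of mTOR inhibition. EGR1, DUSP1, FOS and JUNB rose, JUN and ZFP36L2 fell, and IER2, ZFP36 and ZFP36L1 did not pass the test. Of the 9 genes tested, 6 passed, against 38.5% of the 13520 genes tested; 4 were higher, against 16.6%, and 2 lower, against 21.8%. The median log2 fold change of all genes was -0.0119. The count fell to 3 of 9 when the second DMSO sample was left out, with FOS, JUNB and ZFP36L2 no longer passing (adjusted p = 0.144, 0.182 and 0.128 in limma).

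EGR1 measured 32.8 and 31.3 CPM with Torin-1, against 18.0 and 16.3 CPM with DMSO. It rose by 0.87 on the log2 scale (SE 0.13, limma, adjusted p = 0.000127). DUSP1 measured 43.6 and 43.0 CPM with Torin-1, against 23.7 and 27.0 CPM with DMSO. It rose by 0.75 (SE 0.11, limma, adjusted p = 8.75e-05). These were the genes with the largest increases among the 6 that passed, at 1.87 and 1.71 times the DMSO mean. FOS measured 16.7 and 18.2 CPM with Torin-1 and rose by 0.59 on the log2 scale (SE 0.17, limma, adjusted p = 0.0119), and JUNB measured 61.0 and 56.3 CPM and rose by 0.28 (SE 0.08, adjusted p = 0.0194). Without the second Torin-1 sample FOS had an adjusted p of 0.0653 in limma, and without the first JUNB had one of 0.121, so both calls depended on single libraries.

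JUN measured 11.1 and 12.9 CPM with Torin-1, against 17.0 and 17.8 CPM with DMSO. It fell by 0.51 on the log2 scale (SE 0.12, limma, adjusted p = 0.00527) while its partner FOS rose. The ratio of FOS to JUN per kilobase was 2.47 and 2.32 with Torin-1, 1.27 and 0.877 with DMSO, and 0.714 and 0.553 with apilimod. IER2 measured 37.2 and 43.8 CPM with Torin-1, on either side of the DMSO samples, and differed by 0.08 (95% interval from -0.12 to 0.29, limma, adjusted p = 0.540). Exons of an antisense gene overlap IER2 by 629 bases.

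ZFP36 measured 21.3 and 19.3 CPM with Torin-1 and did not separate from DMSO (log2 difference 0.04, 95% interval from -0.21 to 0.29, limma, adjusted p = 0.833). ZFP36L2 measured 12.9 and 17.6 CPM with Torin-1. Both samples were below the DMSO values of 19.8 and 20.8 CPM, and it fell by 0.41 on the log2 scale (SE 0.14, limma, adjusted p = 0.0300). The spread between the Torin-1 samples was wide, and without the first of them the difference was -0.20 (limma, adjusted p = 0.296). ZFP36L1 measured 3.35 and 1.21 CPM with Torin-1, from 36 and 14 reads. Its difference of 0.67 did not pass (95% interval from -0.042 to 1.37, limma, adjusted p = 0.128) and became 1.16 without the second Torin-1 sample (limma, adjusted p = 0.0189).

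**Figure D3:**
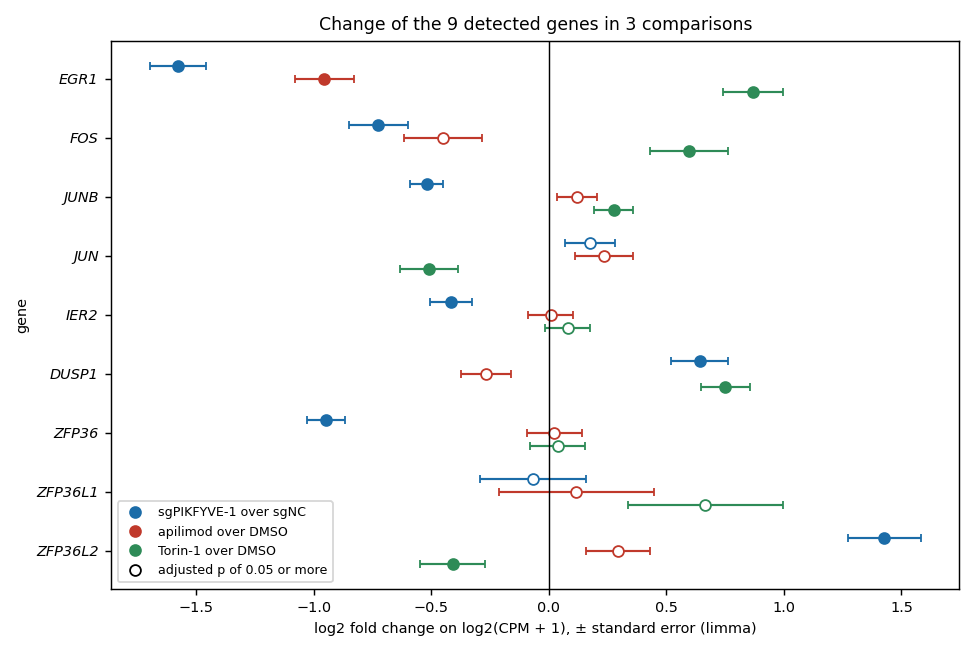
Log2 fold change of the 9 detected genes in 3 comparisons. The horizontal axis is the log2 fold change on log2(CPM + 1), bars are standard errors from limma, filled points passed at an adjusted p under 0.05 and open points did not. EGR1 lay at -1.58 in the knockdown, -0.95 with apilimod and 0.87 with Torin-1, and ZFP36L2 at 1.43, 0.30 and -0.41.

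The drugs were compared with each other in the same fit, which does not involve the DMSO means they share. Their doses differ, 1 µM apilimod and 100 nM Torin-1. EGR1, FOS and DUSP1 were lower with apilimod than with Torin-1, and JUN and ZFP36L2 were higher. Of the 9 genes, 5 passed, against 46.7% of the 13520 genes tested; 2 were higher with apilimod, against 26.2%, and 3 lower, against 20.5%. EGR1 was lower by a log2 difference of -1.82 (SE 0.13, limma, adjusted p = 6.75e-08) and ranked 15 from the lowest of all genes. FOS differed by -1.05 (SE 0.17, adjusted p = 0.000154) and DUSP1 by -1.02 (SE 0.11, adjusted p = 3.14e-06), also in limma. JUN was higher with apilimod by 0.74 (SE 0.12, limma, adjusted p = 0.000232) and ZFP36L2 by 0.70 (SE 0.14, adjusted p = 0.000802). For JUNB the difference was -0.16 (limma, adjusted p = 0.147), and for ZFP36L1 -0.55 (adjusted p = 0.187). IER2 and ZFP36 differed by -0.07 and -0.01, with 95% intervals from -0.28 to 0.13 and from -0.27 to 0.24.

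EGR1 passed in each of these comparisons, of which apilimod and Torin-1 share their DMSO samples. FOS had log2 differences of -0.73 in the knockdown, -0.45 with apilimod and 0.59 with Torin-1, and the value with apilimod did not pass. An exact permutation test of 2 samples against 2 for a single gene cannot give a two-sided p below 0.333, so these calls rest on the spread that limma pools over all genes.

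Genes that report on the same pathway were read from the same fits, as lists described by counts only. Their counts are to be read against all genes tested, of which 21.6% rose and 20.9% fell in the knockdown, 5.75% and 2.79% with apilimod and 16.6% and 21.8% with Torin-1, while 26.2% were higher and 20.5% lower with apilimod than with Torin-1. Feedback and output genes of the MAPK pathway, which include phosphatases of the DUSP family, the Sprouty proteins and the targets PHLDA1 and EPHA2, had 20 of 21 tested. In the knockdown 5 rose and 10 fell, with a median log2 fold change of -0.26. EPHA2 fell by 1.14, PHLDA1 by 1.09 and DUSP6, the phosphatase specific for ERK, by 0.87. DUSP10 and DUSP16, which act on JNK and p38, rose by 0.66 and 0.51, and ETV5, DUSP4 and CCND1 by 0.48, 0.25 and 0.16. With apilimod 0 rose and 4 fell, with a median of -0.17, and PHLDA1 and DUSP6 fell by 0.74 and 0.65. With Torin-1 8 rose and 2 fell, with a median of 0.18. SPRY4 rose by 0.85 and PHLDA1 by 0.73, while CCND1, the gene of cyclin D1, fell by 0.53. Between the drugs 1 was higher and 10 lower with apilimod, with a median of -0.48. There PHLDA1 differed by -1.47 and DUSP6 by -1.28.

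Further immediate early genes moved in both directions. Of 36, 32 were tested: 9 rose and 11 fell in the knockdown (median 0.0025), 6 and 4 with apilimod (median 0.12), and 10 and 5 with Torin-1 (median 0.06). Between the drugs 7 were higher and 9 lower with apilimod (median -0.09). The nuclear receptor gene NR4A2 fell by 0.51 in the knockdown and by 0.55 with apilimod and rose by 1.12 with Torin-1. The stress-induced transcription factor gene ATF3 instead rose by 0.996 in the knockdown and by 1.25 with apilimod, and the AP-1 subunit gene JUND rose by 0.42 and 0.73. IER5L fell by 0.88 and EGR3 by 0.74 in the knockdown, where KLF4 rose by 0.88. SGK1 rose by 0.67 in the knockdown and fell by 0.73 with apilimod. PPP1R15A rose by 0.83 with Torin-1, where RHOB and HBEGF fell by 0.65 and 0.63. Levels were low for HBEGF, at 2.99 and 2.57 CPM with DMSO and 1.58 and 1.29 CPM with Torin-1. They were also low for EGR3, at 3.65 and 5.28 CPM with sgNC and 2.52 and 1.96 CPM with sgPIKFYVE-1.

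Transcripts of the upstream components, from receptors through RAS, RAF, MEK and ERK to SRF cofactors and CREB, were all 26 tested, with 3 higher and 5 lower in the knockdown and 1 higher and 0 lower with apilimod. With Torin-1 4 rose and 10 fell, and between the drugs 10 were higher and 5 lower with apilimod. ELK3, a cofactor of SRF, fell by 0.89 in the knockdown. EGFR and ERBB2 rose by 0.53 and 0.87 with Torin-1, where RPS6KA1 and NRAS fell by 0.56 and 0.51. The gene that was higher with apilimod was MAPK3, by 0.41. Medians of this list lay between -0.095 and 0.071 in the 4 comparisons. These are transcript levels, and the activity of the kinases was not measured.

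**Figure D4:**
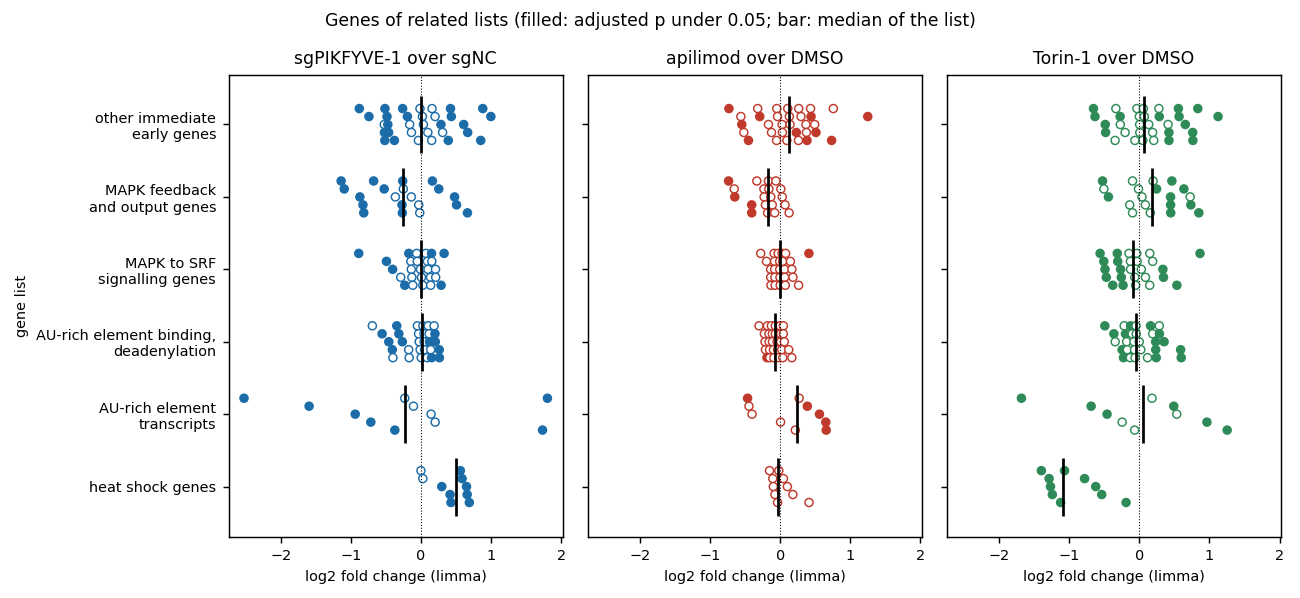
Log2 fold changes of genes in 6 related lists. Each panel is 1 comparison, each point a gene with its log2 fold change from limma on the horizontal axis, filled where the adjusted p was under 0.05, and black bars mark the list medians. The medians of MAPK feedback and output genes lay at -0.26 in the knockdown, -0.17 with apilimod and 0.18 with Torin-1, and those of heat shock genes at 0.49, -0.03 and -1.09.

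Proteins that bind AU-rich elements and the deadenylation machinery with which TTP works had 30 of 30 genes tested. In the knockdown 6 rose and 6 fell, with apilimod 0 and 1, with Torin-1 8 and 6, and between the drugs 6 were higher and 9 lower with apilimod, with medians between -0.080 and 0.015. In the knockdown the counts in both directions are near the shares of all genes. PAN2, a subunit of a deadenylase, fell by 0.55 in the knockdown and rose by 0.59 with Torin-1, and CNOT6L, a catalytic subunit of the CCR4-NOT complex, rose by 0.60 with Torin-1. TIA1 fell by 0.46 in the knockdown. The change of ZFP36 in the knockdown, -0.95, exceeded that of each gene of this list that passed there.

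Of 21 transcripts known from textbooks to carry AU-rich elements, 11 were tested in the knockdown and 10 in the drug table. In the knockdown 2 rose and 5 fell (median -0.23), with apilimod 4 and 1 (median 0.24), with Torin-1 3 and 3 (median 0.06), and between the drugs 3 were higher and 4 lower with apilimod (median -0.11). LIF fell by 1.60 in the knockdown, where ZFP36 was also lower, and CDKN1A rose by 1.80. With Torin-1, PIM1 rose by 1.25.

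TFRC (ENSG00000072274.13, chromosome 3, 196027183 to 196082189, reverse strand) measured 158 and 163 CPM with sgNC and 516 and 555 CPM with sgPIKFYVE-1. It rose by 1.73 on the log2 scale (SE 0.05, limma, adjusted p = 1.69e-15). In the drug table it measured 224 and 220 CPM with DMSO, 333 and 364 CPM with apilimod, and 67.2 and 69.7 CPM with Torin-1. It rose by 0.65 with apilimod (limma, adjusted p = 4.08e-06) and fell by 1.68 with Torin-1 (adjusted p = 1.68e-10). ZFP36 mRNA was lower where TFRC was higher in the knockdown, whereas in the drug table TFRC moved in both directions while the ZFP36 values of each drug overlapped those of DMSO. The study reports that knockout of TTP restored TFRC mRNA under mTOR inhibition. TTP protein was not measured in these data, and the part of TTP in the TFRC levels was not tested with them.

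Heat shock genes, which respond to handling and proteotoxic stress and share inducing signals with immediate early genes, moved with the groups as well. Of 12, 10 were tested, and the other 2, HSPA1A and HSPA1B, had means under 1 CPM in both tables. As for IER3, a low listed value does not show that these transcripts were absent. In the knockdown 8 rose and 0 fell (median 0.49), and with Torin-1 0 rose and 10 fell (median -1.09). With apilimod 0 passed in limma, with 4 at an unadjusted p under 0.05. Between the drugs 10 were higher with apilimod and 0 lower (median 1.12). Their summed level was 5106 and 5218 CPM with sgNC, 6993 and 7243 with sgPIKFYVE-1, 7878 and 7840 with DMSO, 7509 and 7747 with apilimod, and 4779 and 5016 with Torin-1. Their direction was opposite to that of EGR1 and FOS in the knockdown and with Torin-1, but not to that of every member. In the knockdown 5 members fell, while DUSP1 and ZFP36L2 rose as most heat shock genes did. With Torin-1 4 rose, while JUN and ZFP36L2 fell as the heat shock genes did. The part of heat shock genes in the values of the immediate early genes was not tested.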

How the data were processed

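The data are RNA-seq of QGP-1 cells, with 10 samples assigned to 5 groups by their titles. Per the methods and the submitters' processing notes, the authors demultiplexed reads with bcl2fastq 2.20, trimmed adapters with Trimmomatic, summed transcript estimates to genes (build hg38) and scaled them with edgeR's TMM factors; the quantifier and annotation are not given in the sources used here. The labels name ribosomal RNA removal, whereas the methods name oligo(dT) selection. The deposited values are a normalized signal on a CPM scale, in 2 separately normalized tables. Because only 68.1% to 71.5% of low values were whole reads (within 0.02 of a read), counts could not be recovered and no count test was run.

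Tests were made on log2(CPM + 1) in limma 3.58.1 (R 4.3.3, lmFit and trended eBayes) for every gene whose mean reached 1 CPM in its table, 4 samples entering the knockdown fit and 6 the drug fit. P-values were adjusted by Benjamini-Hochberg across all of these genes, and an adjusted p under 0.05 was called. The pseudocount of 1 shrinks changes of low genes. The design assumed plain CPM, and the same test was used. The procedure was also run on simulated counts. Their spread was fixed in advance and not taken from these replicates, so that run does not show how it performs on these data. Depth limits cover counting error only. Gene positions and 3′UTRs are from GENCODE release 29 on GRCh38, with a principal transcript for each gene, which also gave the lengths for levels per kilobase.

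The members, gene lists and tests were chosen with earlier results of these data known. Named genes are all members, PIKFYVE, TFRC, and per list and comparison up to 2 genes with the highest and 2 with the lowest log2 fold change among those that passed, of which not all are reported here. Values of such a gene in the other comparisons are given beside it, and which of these to print was chosen after their values were seen. For FOS, EGR1 and ZFP36, the 5 genes with the highest Pearson correlation over the 10 samples, centred within each table, are named. Symbols of 27 gene names that had become dates were restored from gene IDs. Replicate numbers were not used as pairs. Replicates differed by a median of 1.87 to 2.56 times the Poisson expectation, so none was a copy of another. This does not tell whether replicates came from separate cultures or from the same RNA. Alternatives were a pseudocount of 0.1, no filter, quantile normalization, a replicate block, eBayes without a trend, drug fits of the compared groups alone, a call that also needs a log2 fold change of 1.5 in either direction, as in the methods, and each sample left out in turn. Plots were made in matplotlib 3.10.9 (Python 3.11.15).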

Additional observations from a re-analysis of the deposited data

Results flagged for a closer look

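JUNB and DUSP1 had opposite signs under knockdown and under inhibition of PIKfyve, with both treated samples on one side of their controls in one table and on the other side in the other. The log2 fold change of JUNB was -0.5196 in the knockdown and 0.1203 with apilimod. For DUSP1 it was 0.6415 in the knockdown and -0.2686 with apilimod. Leaving out a sample moved the apilimod value of JUNB between 0.0483 and 0.1922 and that of DUSP1 between -0.3596 and -0.1777. The smallest of these differences, 0.0483 and -0.1777, were those without DMSO 2. The knockdown values passed in limma and the apilimod values did not (adjusted p = 0.467 for JUNB and 0.153 for DUSP1). For JUNB the lower apilimod sample, at 51.2 CPM, lay barely above the higher DMSO sample, at 50.8 CPM. How many of all genes tested meet the same rule was not counted, so these flags are descriptions only. The difference between the tables was not tested, and each table was normalized on its own.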

How the results depend on the processing

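Of 405 log2 fold changes recomputed for the 9 detected genes over all alternatives and the 36 combinations of gene and comparison, 377 kept their sign and their side of the threshold, 12 lost the threshold, 3 gained it and 13 changed sign, all 13 in genes that had not passed. In the knockdown 7 genes passed under every alternative and left-out sample except when a fold change of at least 1.5 (log2, either sign) was also asked for, where 1 (EGR1) remained; the same cutoff left 0 with apilimod, 0 with Torin-1 and 1 between the drugs. Over all genes it left 141, 62, 49 and 175, by its own construction.

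Without the variance trend 3709 genes were called in the knockdown and 466 with apilimod. Without a filter 565 were called with apilimod. Same-numbered replicates deviated together with correlations of 0.037, 0.048, 0.043 and 0.104 over genes, which with 2 numbers does not establish pairs; with a replicate block 1756 genes were called with apilimod, against 1155 without it, and no member's call changed.

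Leaving out samples in turn gave 4439 to 5080 genes called in the knockdown, 596 to 1315 with apilimod, 3574 to 5185 with Torin-1 and 5147 to 6032 between the drugs, and 3 to 6 members with Torin-1. The lowest apilimod counts were 656 and 596 without DMSO 1 and DMSO 2, and 688 without apilimod 1. Sign changes were ZFP36L1 in the knockdown (-0.18 to 0.0414, and 0.0913 with quantile normalization), IER2 with apilimod (-0.0089 to 0.0245, and -0.0211 with quantile normalization), ZFP36 with apilimod (-0.0662 to 0.11), ZFP36L1 with apilimod (-0.15 to 0.39), IER2 with Torin-1 (-0.0348 to 0.20), ZFP36 with Torin-1 (-0.0305 to 0.11), and between the drugs IER2 (-0.19 to 0.0426) and ZFP36 (-0.10 to 0.0752). With Torin-1, ZFP36L2 also lost its call with no filter, with quantile normalization and without the trend (adjusted p = 0.113, 0.0501 and 0.0864 in limma), FOS with no filter (0.0753) and JUNB without the trend (0.0653). Between the drugs JUNB passed with quantile normalization at -0.24 (limma, adjusted p = 0.0386). Quantile normalization also changed the split of all calls from 67.4% to 55.1% higher with apilimod. Of 216 list counts and medians, 37 moved. The cause was not tested. With 2 samples a group and about 1 CPM in DMSO and apilimod, drug effects on ZFP36L1 could not be resolved.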

Other observations

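Over the 10 samples, centred within each table, and among 13235 genes tested in both tables, the genes most like EGR1 were OSBPL10 (Pearson r = 0.996), NAV2 (0.995), TXNIP (0.994), ABCC8 (0.992) and DAPK1 (0.991). The genes most like FOS were NLGN3 (0.993), FBXL16 (0.987), KCNF1 (0.984), ZSWIM6 (0.979) and ZMIZ1 (0.979). The genes most like ZFP36 were IGF2 (0.989), MTSS1L (0.987), PIKFYVE (0.984), FKBP9 (0.984) and PKD1 (0.983). These are descriptions over samples that share 5 groups, chosen as the highest of many genes, and PIKFYVE is the gene that was knocked down. Among the members, FOS and EGR1 had r = 0.964, FOS and JUN -0.858, and ZFP36 and ZFP36L2 -0.893. The last pair did not stand out, since ZFP36L2 had -0.900 with JUNB and -0.898 with EGR1, against 0.615 with JUN. Other pairs of members are not listed here.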
